A study of Mus musculus with 6 samples.

Results

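The T cell receptor genes described here are 10 genes chosen by name: the CD3 chain genes *Cd3d*, *Cd3e*, *Cd3g* and *Cd247*, the coreceptor genes *Cd4*, *Cd8a* and *Cd8b1*, the kinase genes *Lck* and *Zap70*, and the costimulatory receptor gene *Cd28*. They are 10 of the 41786 gene symbols counted, and all 10 were among the 17364 genes with enough reads to test. RNA came from lesions that model endometriosis in female C57BL/6 mice. Uterus from B6-GFP positive donors, aged 6 weeks, was sutured onto the peritoneal wall of wild type recipients, aged 8 weeks. All lesions share this construction, were given 3 days to establish and were collected in diestrus. The vehicle group (3 libraries) received daily vehicle for 3 weeks, and the niclosamide group (3 libraries) received niclosamide, an oral anthelmintic, at 200 mg/kg body weight daily for 3 weeks. The labels also give 3 weeks for the whole time from implantation to necropsy, which leaves the start of dosing uncertain by days. Vehicle 1 is RNA pooled from 4 mice and the other libraries are 1 mouse each, so the vehicle spread mixes a pool with single animals. The wild type recipients have their own T cells, and the counts do not separate donor from recipient cells.

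T cells recognise antigen through a receptor whose antigen-binding chains have no signalling part of their own. The CD3 gamma, delta and epsilon chains and the zeta chain (*Cd247*) assemble with it and carry the tyrosine motifs through which it signals. CD4 binds MHC class II and CD8 binds MHC class I on the presenting cell, and both bring the kinase LCK to the receptor; LCK phosphorylates the motifs, ZAP-70 docks on them and is activated, and CD28 supplies the second signal needed for full activation. T cells are regular residents of the uterus and of the peritoneal cavity, and they are found in endometriotic lesions.

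Every one of these genes was higher on average in niclosamide-treated lesions, by 0.64 (*Lck*) to 1.32 (*Cd8a*) on the log2 scale, and none passed the threshold. By edgeR's quasi-likelihood test 0 of the 10 had a Benjamini-Hochberg adjusted p under 0.05, against 0.0% of all genes tested, and their adjusted p values ran from 0.52 to 0.88. A log2 fold change above 0 was found in 10 of 10, against 53.7% of all genes tested. At an unadjusted p under 0.05, 9 of 10 were higher, against 3.37% of all genes, the exception being *Cd4*. The median log2 fold change of the 10 was 0.84, and that of all genes tested was 0.02. DESeq2 with the same adjustment called 1 of the 10, *Cd3g* (adjusted p = 0.025), where it called 0.424% of all genes higher and 1.01% in either direction. limma-voom called 0, with and without library quality weights. In bulk tissue a larger number of T cells and more RNA per T cell cannot be told apart.

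Levels are given as CPM, a gene's read count scaled to a common library total, after TMM adjustment between libraries. The lowest niclosamide library lay above the highest vehicle library in 7 of the 10 genes, against 5.9% of all genes tested, and 0 of the 10 had the reverse, against 6.37%. The groups overlapped in *Cd3e*, *Cd4* and *Zap70*. For *Zap70* this turns on the scaling, because niclosamide 3 lies only 0.108 CPM under vehicle 1. The count of genes without overlap was 7 or 8 of 10 over 4 scalings, against 4.41% to 6.23% of all genes tested.

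**Figure D1:**
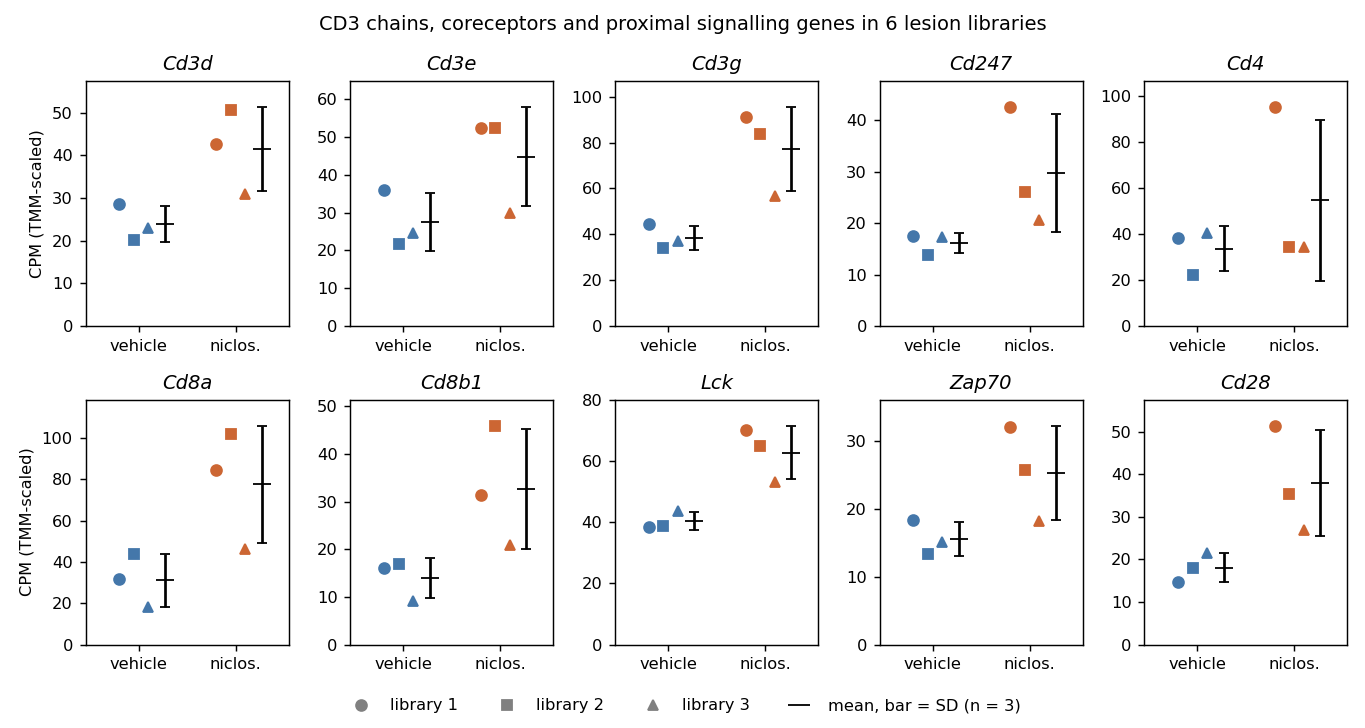
CPM (TMM-scaled, linear axis from 0) of the 10 genes in each of the 3 vehicle (blue) and 3 niclosamide (orange) libraries, with the symbol giving the library number, and beside them the mean with its SD (n = 3). Niclosamide 3 is the lowest or joint lowest niclosamide library in every panel, and in *Cd4* niclosamide 1 stands apart at 95.1 CPM.

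*Cd3g*, *Cd3d* and *Cd3e* lie together on chromosome 9 (GRCm38), within 40091 bases from 44969572 to 45009662. *Cd3g* (44969572 to 44980431, minus strand, 7 exon intervals) and *Cd3d* (44981769 to 44987052, plus strand, 6 exon intervals) point away from each other with 1338 bases between their starts. *Cd3e* (44998735 to 45009662, minus strand, 8 exon intervals) ends 11683 bases from the end of *Cd3d*. The RefSeq table (GRCm38.p6) had promoter windows, 250 bases before to 50 bases after a start, for 7 of the 10 genes and 10 starts; *Cd4*, *Cd8b1* and *Cd28* had no entry. The windows of the CD3 cluster and of the upstream *Lck* start are shown because these genes belong to the receptor's signalling core. Capitals mark the letters CAGGTG (an E-box), TGTGGT (the core bound by RUNX factors), AGGAAG (an ETS core) and TATAAA, each on either strand; E proteins, RUNX and ETS factors are known regulators of T cell genes, and none of the matches printed overlap.
Cd3g, chr9:44980382-44980681, minus strand: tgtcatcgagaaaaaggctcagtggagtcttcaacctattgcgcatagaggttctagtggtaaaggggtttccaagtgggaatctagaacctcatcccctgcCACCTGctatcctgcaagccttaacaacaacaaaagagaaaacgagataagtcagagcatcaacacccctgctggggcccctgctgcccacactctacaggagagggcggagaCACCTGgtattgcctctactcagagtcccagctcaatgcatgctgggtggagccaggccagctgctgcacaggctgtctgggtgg
Cd3d, chr9:44981536-44981835, plus strand: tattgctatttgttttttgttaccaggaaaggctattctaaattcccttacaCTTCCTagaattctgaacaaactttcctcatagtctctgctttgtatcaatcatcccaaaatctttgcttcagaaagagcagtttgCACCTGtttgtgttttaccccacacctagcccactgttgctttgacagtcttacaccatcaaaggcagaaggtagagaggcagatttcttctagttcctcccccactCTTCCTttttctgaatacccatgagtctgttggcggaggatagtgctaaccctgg
Cd3e, chr9:45009562-45009861, minus strand: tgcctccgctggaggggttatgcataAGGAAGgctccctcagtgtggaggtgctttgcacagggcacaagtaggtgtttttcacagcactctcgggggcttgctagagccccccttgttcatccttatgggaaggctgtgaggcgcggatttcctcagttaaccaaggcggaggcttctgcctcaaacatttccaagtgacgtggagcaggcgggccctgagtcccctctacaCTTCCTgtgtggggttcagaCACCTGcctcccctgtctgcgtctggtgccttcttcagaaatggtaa
Lck, chr4:129573592-129573891, minus strand: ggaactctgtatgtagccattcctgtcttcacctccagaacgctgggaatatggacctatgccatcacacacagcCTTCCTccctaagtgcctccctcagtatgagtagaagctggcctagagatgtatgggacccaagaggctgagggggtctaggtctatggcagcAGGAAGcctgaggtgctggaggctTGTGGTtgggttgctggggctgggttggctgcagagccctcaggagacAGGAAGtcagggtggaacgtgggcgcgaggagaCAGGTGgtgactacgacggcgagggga
The E-box letters occur in 8 of the 10 windows of these genes, against 20.2% of all 32851 windows in the table. The ETS letters occur in 7 of 10, against 35.4%, the RUNX letters in 2 of 10, against 16.8%, and TATAAA in 0 of 10, against 13.6%. The *Cd8a* window, not printed, holds none of these letters. *Lck* has 2 windows and *Zap70* 3, so the 10 are not separate genes, and a match is a description of the letters and not a bound site.

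Among the CD3 chains, *Cd3g*, the gamma chain gene, had the clearest difference. Its vehicle libraries held 44.3, 34.0 and 37.2 CPM and its niclosamide libraries 91.3, 83.5 and 56.6 CPM, here as elsewhere in the order 1, 2, 3. The groups were apart by 12.3 CPM, with niclosamide 3 the closest to vehicle. The means were 38.5 ± 5.28 (SD, n = 3) and 77.2 ± 18.2 CPM, a 2.0-fold ratio and a log2 fold change of 1.00 ± 0.21 (SE; edgeR quasi-likelihood, adjusted p = 0.52). Leaving out a library moved the log2 fold change between 0.86 and 1.19, and 2.82% of all genes had a value at least as large as that of *Cd3g*.

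*Cd3d*, the delta chain gene, had 28.6, 20.1 and 23.1 CPM with vehicle and 42.7, 50.7 and 31.1 CPM with niclosamide. It was highest in niclosamide 2, and the gap between the groups was 2.45 CPM. Its log2 fold change was 0.79 ± 0.22 (SE; edgeR quasi-likelihood, adjusted p = 0.60). *Cd3e*, the epsilon chain gene, had 36.1, 21.7 and 24.6 CPM with vehicle and 52.5, 52.3 and 29.8 CPM with niclosamide. Here niclosamide 3 lay below vehicle 1, and without vehicle 1 the log2 fold change went from 0.71 ± 0.29 (SE) to 0.95. The epsilon chain is part of both CD3 heterodimers, and the log2 fold changes of *Cd3d* and *Cd3e* lay within 1 SE of each other.

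*Cd247* (chromosome 1, 165780357 to 165871153, plus strand, 15 exon intervals) encodes the zeta chain, which NK cells also use with their Fc and natural cytotoxicity receptors. It had 17.4, 13.8 and 17.2 CPM with vehicle and 42.5, 25.9 and 20.7 CPM with niclosamide, without overlap. The log2 fold change was 0.88 ± 0.28 (SE; edgeR quasi-likelihood, adjusted p = 0.64), and 0.53 without niclosamide 1, the highest library. Its annotated exons overlap the span of *Pou2f1*, and the counting used the strand.

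The coreceptors did not follow a single order across libraries. *Cd4* (chromosome 6, 124864693 to 124888248, minus strand, 9 exon intervals) had 38.1, 22.3 and 40.5 CPM with vehicle and 95.1, 34.4 and 34.4 CPM with niclosamide. Only niclosamide 1 was above the vehicle range, and niclosamide 2 and 3 were both below vehicle 1 and vehicle 3. The log2 fold change of 0.70 ± 0.47 (SE; edgeR quasi-likelihood, adjusted p = 0.88) was 0.03 without niclosamide 1. *Cd4* is also made by some macrophages and dendritic cells. The summed level of the 10 dendritic cell genes was 374 CPM in niclosamide 1, 179 and 192 in niclosamide 2 and 3, and 166 to 250.5 with vehicle; that of the 10 macrophage genes was 3498, 3085 and 1929 CPM with niclosamide and 2754, 1561 and 1656 with vehicle, with overlap. Their part in the *Cd4* level was not tested.

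*Cd8a* and *Cd8b1* encode the alpha and beta chains of CD8 and lie in the same direction on chromosome 6, *Cd8b1* from 71322812 to 71337451 and *Cd8a* from 71352772 to 71379171, with 15321 bases between them. *Cd8a* had 31.5, 43.7 and 18.1 CPM with vehicle and 84.6, 101.7 and 46.4 CPM with niclosamide. *Cd8b1* had 16.0, 16.9 and 9.18 CPM with vehicle and 31.5, 45.9 and 20.8 CPM with niclosamide. Both genes were highest in niclosamide 2 and lowest in vehicle 3, and neither had overlapping groups. The gap was small, 2.65 CPM for *Cd8a* and 3.95 CPM for *Cd8b1*. Their log2 fold changes of 1.32 ± 0.40 and 1.22 ± 0.36 (SE) were the largest of the 10, with adjusted p of 0.62 and 0.60 by edgeR's quasi-likelihood test. With a library left out they ran from 1.05 to 1.64 and from 0.88 to 1.48.

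The ratio of *Cd8a* to *Cd4* counts within a library, in which the scaling between libraries cancels, was 0.829, 1.96 and 0.449 with vehicle and 0.889, 2.96 and 1.35 with niclosamide. It varied more within each group than between the groups: the log2 ratio averaged -0.15 ± 1.07 (SD, n = 3) and 0.61 ± 0.88, a difference of 0.76 (two-sided exact permutation p = 0.40, and 0.80 adjusted over the 4 ratios tested; the smallest p that 3 against 3 allows is 0.1). A larger difference for CD8 than for CD4 transcripts was therefore not shown. Libraries with a high ratio were found in both groups, vehicle 2 and niclosamide 2.

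The ratio of *Cd8b1* to *Cd8a* counts was steadier, at 0.507, 0.386 and 0.506 with vehicle and 0.372, 0.452 and 0.45 with niclosamide. It is not scaled for exon length, 1416 bases for *Cd8b1* and 3676 for *Cd8a*, so its size does not show which chain was more abundant. Per kilobase of exon, *Cd8b1* and *Cd8a* averaged 9.90 and 8.47 CPM with vehicle and 23.1 and 21.1 CPM with niclosamide. The pair of chains marks CD8 T cells, while some dendritic cells make the alpha chain alone. The log2 ratio differed by -0.13 (exact permutation p = 0.50, adjusted 0.80), within the SD of 0.23 in the vehicle group. Of the 10 dendritic cell genes, 9 had a log2 fold change above 0, with a median of 0.24. They ran from -0.70 ± 0.56 (SE) for *Cd209a* to 1.04 ± 0.39 for *Clec9a*. The part of dendritic cells in the *Cd8a* level was not tested. The ratio of *Cd247* to *Cd3e* differed by 0.12 on the log2 scale (exact permutation p = 0.60, adjusted 0.80), against SDs of 0.28 and 0.36, and it turned to -0.03 without vehicle 1 or without niclosamide 1.

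**Figure D2:**
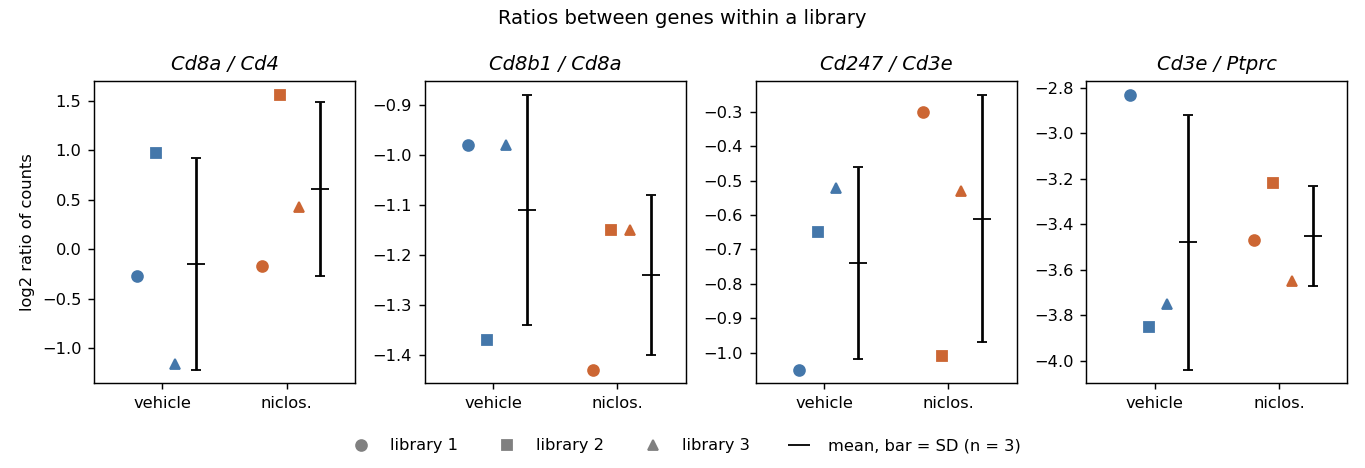
Log2 ratios of counts between 2 genes of the same library (axis in log2 units, a separate range in each panel), for the 3 vehicle (blue) and 3 niclosamide (orange) libraries, with the mean and SD (n = 3). The *Cd8a* to *Cd4* ratio spans -1.16 to 1.56, and the groups overlap in all 4 ratios.

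*Lck* encodes the kinase that phosphorylates the CD3 motifs (chromosome 4, 129548344 to 129573641, minus strand, 14 exon intervals). It had 38.5, 38.8 and 43.8 CPM with vehicle and 70.1, 65.0 and 53.0 CPM with niclosamide. The groups were apart by 9.28 CPM, and *Lck* had the smallest standard error of the 10 genes, with a log2 fold change of 0.64 ± 0.14 (SE; edgeR quasi-likelihood, adjusted p = 0.53). *Zap70* (chromosome 1, 36761798 to 36782821, plus strand, 16 exon intervals), which encodes the kinase that docks on the phosphorylated CD3 motifs, had 18.3, 13.3 and 15.2 CPM with vehicle and 32.1, 25.7 and 18.2 CPM with niclosamide. Its log2 fold change was 0.70 ± 0.24 (SE; edgeR quasi-likelihood, adjusted p = 0.65), close to those of *Cd4* and *Cd3e*.

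*Cd28* (chromosome 1, 60746388 to 60773359, plus strand, 4 exon intervals) had 14.7, 18.0 and 21.6 CPM with vehicle and 51.4, 35.3 and 26.9 CPM with niclosamide. The groups were apart by 5.34 CPM, and the log2 fold change was 1.07 ± 0.27 (SE; edgeR quasi-likelihood, adjusted p = 0.59). The annotation used for counting also places *Cd28* on 2 scaffolds beside chromosome 1 and *Lck* on 1 beside chromosome 4. Among genes given further on, it also places *Icos* and *Ctla4* on 2 such scaffolds each, and *Cd2*, *Trac*, *Trdc* and *Runx3* on 1 each. Multi-mapping reads are left out by the counting tool unless requested, and the file headers show no such request, so the levels of these genes may be too low; whether reads were lost in this way was not tested. Without *Cd28* and *Lck*, the median log2 fold change of the 8 remaining receptor genes was 0.84.

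Niclosamide 1 held the highest value of 7 genes (*Cd3e*, *Cd3g*, *Cd247*, *Cd4*, *Lck*, *Zap70* and *Cd28*) and niclosamide 2 that of the other 3 (*Cd3d*, *Cd8a* and *Cd8b1*). Vehicle 2 held the lowest value of 6 genes, and vehicle 1 and vehicle 3 of 2 each. The mean log2 CPM of the 10 genes was 4.72, 4.49 and 4.50 for the vehicle libraries, and 5.78, 5.56 and 4.98 for the niclosamide libraries. Niclosamide 3 thus lay closer to vehicle 1 than to niclosamide 1 or 2. The profile of *Cd3g* was nearest to the mean profile of the 10 genes (root-mean-square distance over the 6 libraries 0.08 log2 units), and those of *Cd8b1*, *Cd4* and *Cd8a* were farthest (0.38, 0.46 and 0.47).

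**Figure D3:**
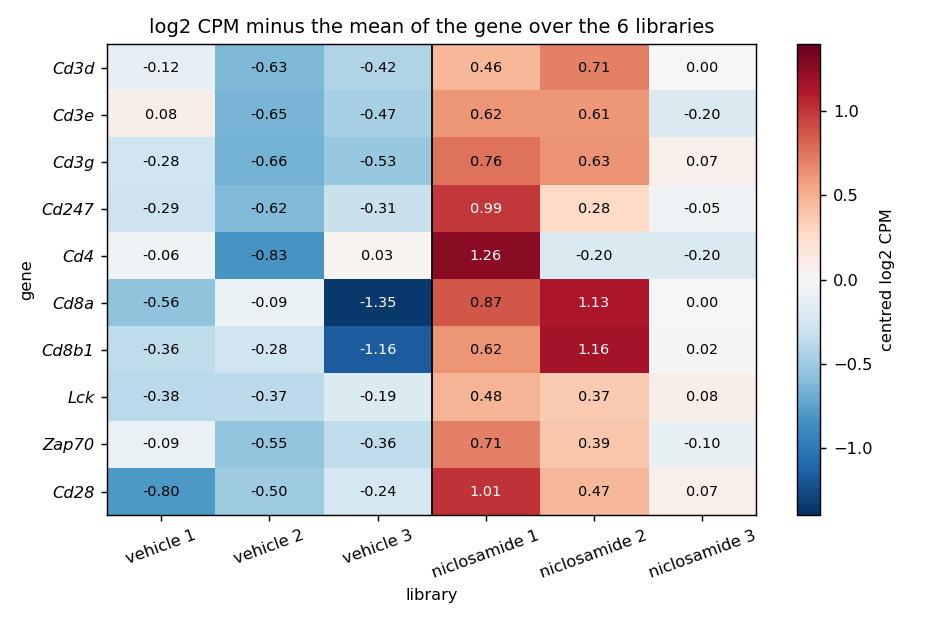
Log2 CPM (prior count 2) of each gene (rows) in each library (columns) minus that gene's mean over the 6 libraries, with blue below and red above 0. Values in niclosamide 1 run from 0.46 to 1.26 and those in niclosamide 3 from -0.20 to 0.08; *Cd4* and the CD8 genes depart most from the other rows.

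To compare levels between genes, CPM was divided by the length of the annotated exons on the primary chromosome, in kilobases. *Cd3g* was the most abundant in both groups, at 37.6 ± 5.16 (SD, n = 3) CPM per kb with vehicle and 75.4 ± 17.8 with niclosamide, and it exceeded the next gene in 6 of 6 libraries. *Cd3e*, *Lck* and *Cd3d* followed at 18.1 ± 5.01, 17.4 ± 1.27 and 15.8 ± 2.87 CPM per kb with vehicle. These 3 changed places between libraries and did not differ beyond their spread. *Cd8b1*, *Cd4* and *Cd8a* formed the next level at 9.90 ± 2.98, 9.68 ± 2.84 and 8.47 ± 3.48 CPM per kb with vehicle, again without a fixed order. *Zap70* (5.36 ± 0.86) and *Cd28* (4.19 ± 0.80) differed in order in 1 of 6 libraries, and *Cd247* was lowest in 6 of 6 at 2.78 ± 0.346 CPM per kb. Each length joins all exons annotated for a gene, and alternative exons among them lower its value on this scale. *Cd247* has the longest, at 5801 bases. The order of the genes depends on these lengths.

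**Figure D4:**
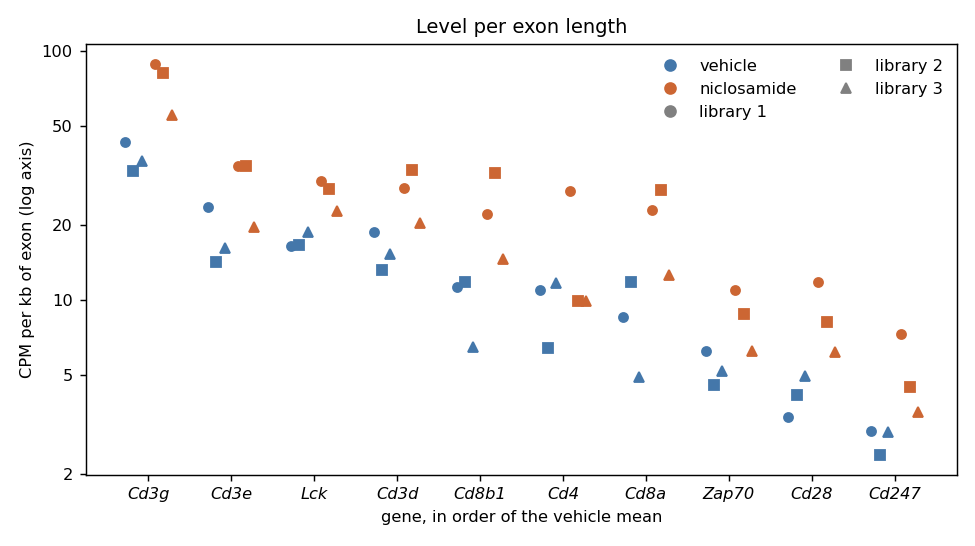
CPM per kilobase of annotated exon on the primary chromosome (log axis) for the 10 genes in order of their vehicle mean, with 1 point per library (blue vehicle, orange niclosamide; the symbol gives the library number). *Cd3g* lies at 33.2 to 89.3 and *Cd247* at 2.39 to 7.32, the ends of the order.

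*Ptprc* encodes CD45, which all leukocytes carry. It had 257, 314.5 and 332 CPM with vehicle and 581, 488 and 374 CPM with niclosamide, and its log2 fold change of 0.68 ± 0.21 (SE; edgeR quasi-likelihood, adjusted p = 0.63) was close in size to that of *Cd3e*. Relative to *Ptprc* in the same library the 10 genes differed much less between the groups, with a median difference of 0.14 in the log2 ratio. The difference was 0.03 for *Cd3e* (exact permutation p = 1, adjusted 1; SDs of 0.56 and 0.22), 0.01 for *Zap70*, -0.03 for *Lck* and -0.09 for *Cd4*. It was 0.67 for *Cd8a*, 0.54 for *Cd8b1*, 0.37 for *Cd28* and 0.32 for *Cd3g*. The difference was above 0 in 8 of 10 genes, against 4.82% of all genes. *Ptprc* was itself higher on average with niclosamide, so a value above 0 only says that a gene differed more than *Ptprc*. That share is over genes of all cell types, not over leukocyte genes alone. The groups did not overlap in 1 of 10, *Cd28*, against 0.323% of all genes. The *Cd3e* to *Ptprc* ratio was highest in vehicle 1, the pooled library, at 0.14, against 0.0691 and 0.0742 in vehicle 2 and 3 and 0.0797 to 0.107 with niclosamide.

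**Figure D5:**
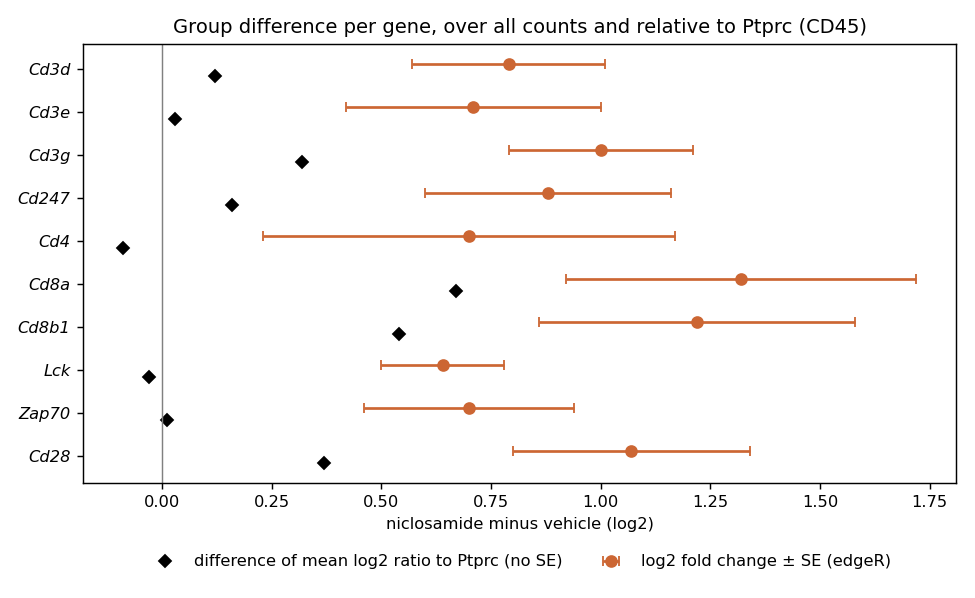
Niclosamide minus vehicle in log2 units for the 10 genes: the edgeR log2 fold change with its SE (orange) and the difference between group means of the log2 ratio to *Ptprc* in the same library (black, no SE). All 10 orange points lie between 0.64 and 1.32, and the black points lie between -0.09 and 0.67.

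The 8 tested genes whose profile over the 6 libraries was most like the mean profile of the receptor genes, out of 13105 compared, were *Clec12a*, *Mpeg1*, *Gpr65*, *March1*, *Ubash3a*, *Itgal*, *Tlr8* and *Tm6sf1*, at root-mean-square distances of 0.041 to 0.11 log2 units, where the median gene was at 0.56. *Ubash3a* encodes an inhibitor of T cell receptor signalling and *Itgal* the alpha chain of the integrin LFA-1. *Clec12a*, *Mpeg1* and *Tlr8* are best known from myeloid cells; *Clec12a*, the nearest, had 78.3, 71.2 and 69.6 CPM with vehicle and 173, 149 and 93.2 CPM with niclosamide. These values follow the same order of libraries as *Cd3g* except within the vehicle group.

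The antigen-binding chains that assemble with CD3 were higher on average too. All 7 constant region genes had a log2 fold change above 0 (median 0.75). Of these, 4 had an unadjusted p under 0.05 and 0 passed after adjustment over all genes (edgeR, with 0 called by DESeq2). Of all genes tested, 53.7% had a log2 fold change above 0 and 3.37% were higher at an unadjusted p under 0.05 (edgeR). DESeq2 called 0.424% of all genes higher. These shares are the comparison for the same counts in the gene lists below. *Trac*, the alpha chain constant region, had group means of 35.9 ± 3.31 and 61.0 ± 16.5 CPM (SD, n = 3), *Trbc1* 15.7 ± 1.71 and 26.5 ± 6.67, and *Trbc2* 17.9 ± 2.87 and 33.0 ± 7.91. *Trdc*, the constant region of gamma delta T cells and also transcribed in some NK cells, averaged 9.59 ± 1.27 and 11.96 ± 2.41 CPM with overlapping groups. The gamma chain constant regions, apart from *Tcrg-C4* (0.42 ± 0.33 SE), had groups that did not overlap, with log2 fold changes of 0.59 ± 0.27 for *Tcrg-C1* and 1.33 ± 0.42 for *Tcrg-C2*, the largest of the list, which had 3.97, 3.98 and 2.23 CPM with vehicle and 6.25, 13.3 and 6.03 CPM with niclosamide. *Trbc1* and *Trbc2* are near-identical, so their split is uncertain.

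Of 30 further genes of T cell receptor signalling, 27 had a log2 fold change above 0, with a median of 0.38. At an unadjusted p under 0.05, 11 were higher and 0 lower, and 0 passed after adjustment (edgeR; DESeq2 called 0). *Themis*, which encodes a T cell protein that tunes receptor signalling, had the smallest p, with 6.42, 10.3 and 9.49 CPM with vehicle and 22.2, 25.9 and 12.8 CPM with niclosamide. The adaptors phosphorylated by ZAP-70 had overlapping groups: *Lat* averaged 16.9 ± 1.85 and 22.2 ± 4.16 CPM and *Lcp2* (SLP-76) 64.5 ± 6.78 and 91.2 ± 21.7 CPM. Genes that many cell types express differed less: the log2 fold change was 0.00 ± 0.11 (SE) for the kinase gene *Fyn*, -0.06 ± 0.14 for the phospholipase gene *Plcg1*, 0.11 ± 0.16 for *Csk*, the kinase that restrains LCK, and -0.11 ± 0.19 for *Bcl10*, which had the smallest p of the 3 genes below 0.

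Among 17 tested genes of costimulation and adhesion, 16 had a log2 fold change above 0 (median 0.69), 7 with an unadjusted p under 0.05 and 0 after adjustment (edgeR); DESeq2 called 1, *Sh2d1a* (adjusted p = 0.025), which encodes the adaptor SAP. The ligands of CD28 differed from each other in size. *Cd86* had 31.5, 28.6 and 22.5 CPM with vehicle and 71.7, 68.5 and 32.8 CPM with niclosamide, without overlap (log2 fold change 1.06 ± 0.32 SE). *Cd80* averaged 13.7 ± 2.52 and 16.2 ± 5.80 CPM, with overlap, and its log2 fold change of 0.23 ± 0.30 turned to -0.05 without niclosamide 1. *Cd48*, a ligand of CD2, had the smallest p of the list (log2 fold change 0.69 ± 0.15 SE), and *Cd2* had 0.57 ± 0.18 and *Cd5* 0.46 ± 0.22. The CD28 relatives *Icos* and *Ctla4*, which lie beside *Cd28* on chromosome 1, had log2 fold changes of 0.76 ± 0.37 and 0.67 ± 0.37 with overlapping groups, and of 0.31 and 0.24 without niclosamide 1. *Icosl* had the only value below 0, at -0.06 ± 0.15.

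Of 12 T lineage transcription factors 11 had a log2 fold change above 0 (median 0.28), 1 with an unadjusted p under 0.05 and 0 after adjustment (edgeR; DESeq2 called 1). That gene was *Tbx21*, the factor of interferon-gamma-producing T and NK cells, at 7.06 ± 0.618 and 13.1 ± 2.71 CPM (DESeq2 adjusted p = 0.040). *Zbtb7b* (ThPOK), which directs the CD4 lineage, had 0.19 ± 0.21 (SE) and *Runx3*, which directs the CD8 lineage, 0.32 ± 0.29. *Bcl11b*, needed for T cell commitment, had 0.55 ± 0.25, *Foxp3*, of regulatory T cells, 0.25 ± 0.28, and *Satb1* -0.18 ± 0.29. The recombination gene *Rag2* had no count in any library, which allows at most 0.0824 to 0.109 CPM, and *Rag1* and *Ptcra* of immature thymocytes stayed under 1 CPM. The 3 other genes of the thymocyte list were detected in every library, and 0 passed after adjustment (edgeR; DESeq2 called 0; median log2 fold change 0.61). *Dntt* had 0.587 to 1.597 CPM over the 6 libraries and *Arpp21* 0.865 to 5.37 CPM, both with overlap. *Cd1d1*, which many cell types express, had 16.9, 12.8 and 15.2 CPM with vehicle and 38.8, 19.7 and 20.4 CPM with niclosamide, without overlap (log2 fold change 0.82 ± 0.30 SE).

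Genes of NK cells, which share *Cd247*, *Lck* and *Zap70* with T cells, were higher on average in 11 of 12 cases (median log2 fold change 0.93), 6 with an unadjusted p under 0.05 and 0 after adjustment (edgeR; DESeq2 called 3, *Klrk1*, *Klrd1* and *Prf1*). Their summed level was 437 to 586 CPM with vehicle and 583 to 873 with niclosamide. *Ncr1* had 3.61, 10.03 and 6.82 CPM with vehicle and 10.6, 6.71 and 21.2 CPM with niclosamide, and *Klrb1c* 7.29, 13.5 and 10.9 and 14.4, 14.6 and 24.3 CPM. Both were highest in niclosamide 3. Among the niclosamide libraries, niclosamide 3 was the highest for 5 of the 12 NK genes and the lowest for 7. Their summed level was lowest there, but *Tyrobp* and *Fcer1g* are its largest terms in every library. With niclosamide, *Tyrobp* had 275, 269 and 174 CPM and *Fcer1g* 176, 180 and 105 CPM. The sum therefore does not give the order of the libraries for the other NK genes. *Fcer1g*, the signalling chain that pairs with or replaces zeta in NK and myeloid cells, averaged 120 ± 32.4 and 154 ± 41.9 CPM with overlap. The part of NK cells in the shared genes was not tested.

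Among the other cell types listed here, the sums of smooth muscle and neutrophil genes differed without overlap, and those of the rest overlapped. Summed smooth muscle genes (7, of which 7 below 0) had 5252 to 7561 CPM with vehicle and 1814 to 4362 with niclosamide, and summed neutrophil genes (7, of which 7 below 0) 414 to 847 and 230 to 347 CPM. Skeletal muscle genes ranged from 744 CPM in niclosamide 2 to 29540 in niclosamide 1, and B cell genes from 46.6 to 189 CPM with vehicle and 85.2 to 197 with niclosamide. Endometrial stroma genes summed to 3856 to 5899 CPM and uterine epithelium genes to 325 to 1929 CPM over the 6 libraries. The stroma sum is mostly *Col1a1* and *Vim*, which other connective tissue also expresses. *Hoxa10*, a homeobox gene of the uterus, had 113, 155 and 206 CPM with vehicle and 55.2, 62.5 and 333.5 CPM with niclosamide, and *Pgr*, the progesterone receptor gene, 129, 309 and 181 CPM and 62.6, 108 and 129.9 CPM. Lymph node and naive lymphocyte genes overlapped, with 135 to 282 CPM against 189 to 247, as did mast cell genes, with 45.4 to 76.7 against 44.8 to 61.8. Of 5 structural RNAs tested, whose share varies with RNA quality and library preparation, 5 were below 0. In 4 the groups did not overlap, against 6.37% of all genes tested that were lower without overlap. *Rn7sk* had 42.5, 17.4 and 19.1 CPM with vehicle and 9.45, 2.32 and 1.03 CPM with niclosamide. The part of these cell types and RNAs in the T cell genes was not tested.

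The tested genes nearest to the receptor genes on the chromosome, with predicted genes left out, differed by region. Those on either side of the CD3 cluster, *Ube4a* and *Mpzl2*, had log2 fold changes of 0.13 ± 0.12 (SE) and -0.35 ± 0.54. Those beside the CD8 genes, *Krcc1* and *Rmnd5a*, had 0.21 ± 0.11 and 0.14 ± 0.20. Beside *Cd4* lies *Lag3*, a CD4-related receptor gene of activated T and NK cells, with 1.04 ± 0.46, and on the other side *Gpr162*, with 0.67 ± 0.27. *Creg1* beside *Cd247* had 0.73 ± 0.28 and *Pou2f1* on its other side -0.19 ± 0.14. *Eif4a-ps4* beside *Cd28* had -0.17 ± 0.34, with *Ctla4* on the other side. The neighbours of *Lck*, *Hdac1* and *Fam167b*, had 0.03 ± 0.17 and 0.14 ± 0.29, and those of *Zap70*, *Actr1b* and *Tmem131*, -0.11 ± 0.15 and -0.13 ± 0.13. None of these neighbours passed after adjustment (edgeR).

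The libraries held 27797121 to 34797000 counted reads, and the 10 genes had 292 to 3291 counts each, for which counting alone gives an SD of 5.9% to 1.7%, less than the SD between libraries of a group. The p values measure the spread between 3 libraries a group, 1 of them a pool.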

How the data were processed

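Deposited values are raw read counts, 1 per symbol; per the file headers, the authors counted exon reads on the reverse strand with featureCounts 1.4.6-p4 on STAR alignments to GRCm38.p3, with multi-mapping reads not requested. Per the submitters' processing notes, edgeR 3.12.0, STAR 2.4.2a, Trimmomatic 0.33 and bcl2fastq 1.8.4 were used. Here all genes were fitted with edgeR 4.0.16 in R 4.3.3: filterByExpr (minimum count 10, total 15; 17364 genes), TMM, robust quasi-likelihood test of the group, Benjamini-Hochberg adjustment over all genes, threshold 0.05. Log2 fold changes are niclosamide over vehicle; SE is the absolute fold change over the root of F. Log2 CPM uses a prior count of 2, ratios 0.5 added counts. DESeq2 1.42.0 and limma 3.58.1 (voom) were alternatives. The procedure was tested on simulated data. The genes and lists were chosen with earlier results of these data known. Named are the 10 genes, the pathway genes given with values, the smallest p per direction and pathway list, and the 8 nearest profiles (mean log2 CPM of at least 1; predicted genes and immunoglobulin or T cell receptor segments left out). *Sh2d1a*, *Rn7sk*, *Rag1*, *Rag2*, *Ptcra*, *Klrk1*, *Klrd1*, *Prf1*, *Tyrobp*, *Clec9a*, *Cd209a*, *Itgax*, *Tcrg-C1*, *Tcrg-C2*, *Tcrg-C4*, *Dntt*, *Arpp21*, *Cd1d1*, *Hoxa10*, *Pgr*, *Col1a1*, *Vim* and the neighbouring genes were named after their values were seen. No library pair shared its values. Same-numbered libraries did not deviate together (r = -0.08, -0.09 and 0.27), so the numbers were not treated as pairs. The values of 1 listed pathway gene are not reported here.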

Additional observations from a re-analysis of the deposited data

How the results depend on the processing

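All 150 refits of single receptor genes (10 genes under 15 alternatives) kept a log2 fold change above 0, and 1 of them passed the threshold: *Cd3g* by DESeq2 (log2 fold change 1.01). DESeq2 called 178 genes, 1 of them among the 10, and edgeR without a filter on low counts called 1 gene, none of the 10; every other setting called 0. With a library left out, edgeR called 0 genes in each case, and the adjusted p of the 10 genes ran from 0.15 without niclosamide 3 to 1. Their median log2 fold change ran from 0.67 to 1.03. The genes without overlap between the groups numbered 7 to 9 with a library left out. Leaving out a library can keep or raise this count but not lower it, so nothing is concluded from it. This count was chosen after seeing the data, as were other scalings and the median without *Cd28* and *Lck*. The *Cd247* to *Cd3e* difference ran from -0.03 to 0.32 with a library left out, reversing without vehicle 1 or niclosamide 1 (both -0.03), and that of *Cd3e* to *Ptprc* from -0.15 to 0.36, reversing without vehicle 2, vehicle 3 or niclosamide 2 (-0.15, -0.10 and -0.08); these ratios rest on small differences. With the replicate number as a block, 0 genes were called, the median log2 fold change of the 10 was 0.80 and the *Cd8a* to *Cd4* difference 0.76; it changed no call. The *Cd8a* to *Cd4* difference ran from 0.26 without vehicle 3 and 0.28 without niclosamide 2 to 1.32 without vehicle 2. The labels give the numbers no shared animal or day. In a group of 3, the exact permutation test cannot pass 0.05.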
